A study of Mus musculus with 4 samples.

Results

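The comparison described here sets 2 arrays of mouse embryonic stem (ES) cells against each other, both of them controls. One is the array labelled as the control of a Ring1A/B double knockout (KO), the other the array labelled as the control of a constitutive Ring1B KO. They were chosen by their titles and are 2 of the 4 arrays of the study. The remaining arrays hold ES cells with a constitutive Ring1B KO and ES cells at day 4 of the conditional Ring1A/B double KO, and they are used below only as 2 further samples beside the controls. The study's design text says that the double KO was made conditional, with an agent it calls OHT, because cells lacking both genes from the start cannot be maintained. Both controls are labelled as wild-type ES cells. The labels name no line, strain, sex, passage, culture medium or feeder layer, do not say whether the control of the double KO carried conditional alleles or a Ring1A deletion, and do not say whether it received OHT. Each group is 1 array, so line, genotype background, culture and array handling cannot be told apart, no test was possible and no p-value was computed. In what follows the arrays are called the Ring1B control, the Ring1B KO, the double KO control and the double KO, and the 2 arrays that belong together are called the Ring1B pair and the double KO pair.

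ES cells are derived from the early embryo and renew themselves while keeping the ability to form all its tissues. A core of transcription factors around Pou5f1 (Oct4), Sox2 and Nanog holds this state, and signals such as LIF, BMP, FGF and Nodal shift cells between a naive condition and a formative condition that is nearer to differentiation. Polycomb repressive complex 1 (PRC1), whose catalytic RING-finger subunits are Ring1A (gene Ring1) and Ring1B (gene Rnf2), keeps many genes for development and for the germline at low levels in these cells. Lines kept as wild type can differ in their balance of these states, in the differentiated cells a culture carries and in imprinting.

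Levels are signal intensities scaled so that the trimmed mean of every array is 277, and signals below 36.6, the floor, were set to the floor. A difference is the log2 signal of the double KO control minus that of the Ring1B control, and a fold against a control at the floor is given as a lower bound ("at least"). Of 18194 named genes, 12646 were above the floor on at least 1 control. Among these, 1542 genes (12.2%) were at least 2-fold higher on the double KO control and 1031 (8.15%) were at least 2-fold lower. The bounds make up 228 of the higher and 161 of the lower genes. The differences reached 4-fold for 234 higher and 184 lower genes and 8-fold for 31 and 33. Over the 10975 genes above the floor on both controls the log2 signals correlated at r = 0.899 across genes, which are not independent replicates, and the median difference was 0.14. Higher genes made up 59.9% of those 2-fold apart, but 47.2% when the medians of the controls were set equal and 49.1% after removing a trend of the difference with signal. All differences below are therefore to be read against a typical gene at 0.14. Counts of list members 2-fold higher or lower are likewise to be read beside the 12.2% and 8.15% of all genes.

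**Figure D1:**
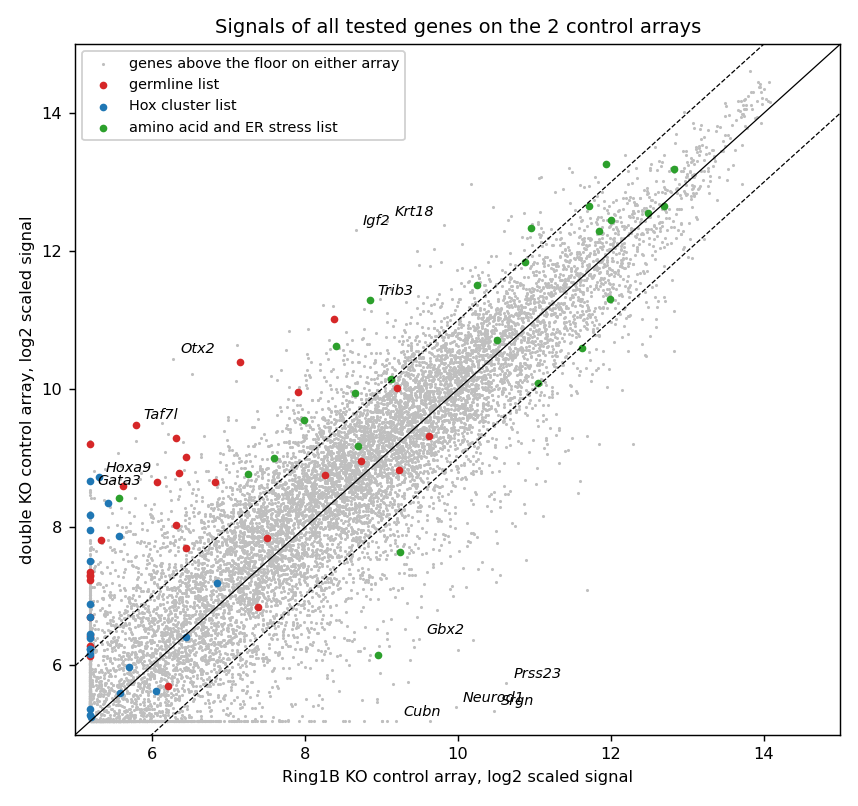
Log2 scaled signal on the Ring1B control (x axis) and on the double KO control (y axis) of the 12646 genes above the floor on either array, 1 point a gene; the solid line marks equality and the dashed lines 2-fold. The points of the germline and Hox lists lie mostly above the upper dashed line and at low signals on the Ring1B control. Of the 25 points of the amino acid and ER stress list, at middle and high signals, 11 lie on or above the upper dashed line and 3 on or below the lower one.

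The targeted genes were read first, as a check of the labels. Ring1 read 146 on the Ring1B control and 164 on the Ring1B KO, against 44.7 on the double KO control and 55.6 on the double KO, so that it was 3.27-fold lower on the double KO control. Rnf2 at its brightest probe set read 2580 and 2775 on the Ring1B control and the Ring1B KO, against 2182 and 1986 on the double KO control and the double KO. Its next brightest probe set read 1954 and 2182 against 1034 and 912. The log2 differences between the controls were -0.24 and -0.92. At both probe sets the Rnf2 signal was thus not lower on the Ring1B KO than on its control. Where these probe sets lie relative to the deleted parts of the genes is not given in the sources used here, so neither gene checks a label, and array names here are the labels only. In the double KO pair, gene lists known as Polycomb targets were higher on the array labelled control than on the array labelled double KO. The geometric mean signals were 76.0 and 38.6 for the Hox genes, 76.1 and 42.7 for the mesoderm and primitive streak genes and 238 and 87.4 for the germline genes. Some other lists fell likewise, with 247 and 107 for trophoblast, 418 and 146 for fibroblast and 1104 and 599 for basement membrane genes. Others ran the other way, among them the naive pluripotency factors, with 1371 and 2149. The trophoblast list shares Eomes, Cdx2 and Hand1 with the mesoderm list, and genes were not sorted here into Polycomb targets and others. Whether the labels of this pair are right was not tested, and each difference between the controls and each pattern below rests on them.

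Some control probe sets of the array, which stand for no single mouse gene, followed the pairs. One for the B1 repeat read 9809 and 9168 in the Ring1B pair against 288 and 492 in the double KO pair. One for the B2 repeat read 15912 and 13399 against 4087 and 4320, and another B2 probe set ran the other way, with 764 and 998 against 20665 and 25589. The 3 probe sets for 18S ribosomal RNA were lower on the double KO pair, with log2 differences between the controls of -2.70, -3.23 and -3.28. As to RNA integrity, signals at the 3′ end were 1.16 to 1.26 times those at the 5′ end for Actb and 0.802 to 0.852 times for Gapdh. The part of these differences in the results below was not tested.

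The ES cell label was checked against 8 marker genes. Pou5f1, the defining factor of the state, read 5988 on the Ring1B control and 4304 on the double KO control, and 4880 and 7581 on the Ring1B KO and the double KO. Nanog read 4810 and 2585 on the controls, Zfp42 5243 and 2611, Fgf4 2327 and 2442, and Utf1, a chromatin factor of undifferentiated cells, 4159 and 4331. All 8 were far above the floor on both controls.

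How the KO arrays stand beside the controls divides the 2-fold genes into 4 patterns, each KO array being given to the control whose log2 signal is nearer. The first pattern, by pair, means that each KO array lies nearer to its own control. By this definition the KO arrays differ in the same direction as the controls, at any size. The pattern held 672 of the higher genes (43.6%) and 657 of the lower genes (63.7%). In the second pattern the double KO control stands alone, with both KO arrays nearer to the Ring1B control. It held 557 higher genes (36.1%) and 152 lower genes (14.7%). In the third the Ring1B control stands alone, with 80 higher (5.19%) and 126 lower genes (12.2%). The fourth pattern is crossed, each KO array being nearer to the control of the other pair, and it held 233 higher (15.1%) and 96 lower genes (9.31%). Higher genes were thus spread over the patterns, while lower genes lay mostly in the first. Between the KO arrays themselves, 409 of the higher genes (26.5%) and 468 of the lower genes (45.4%) were again at least 2-fold apart in the same direction, against 187 (12.1%) and 62 (6.01%) in the opposite direction. Over all 12354 genes above the floor on a KO array, 1306 were 2-fold higher and 1566 lower on the double KO, together 23.2%.

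**Figure D2:**
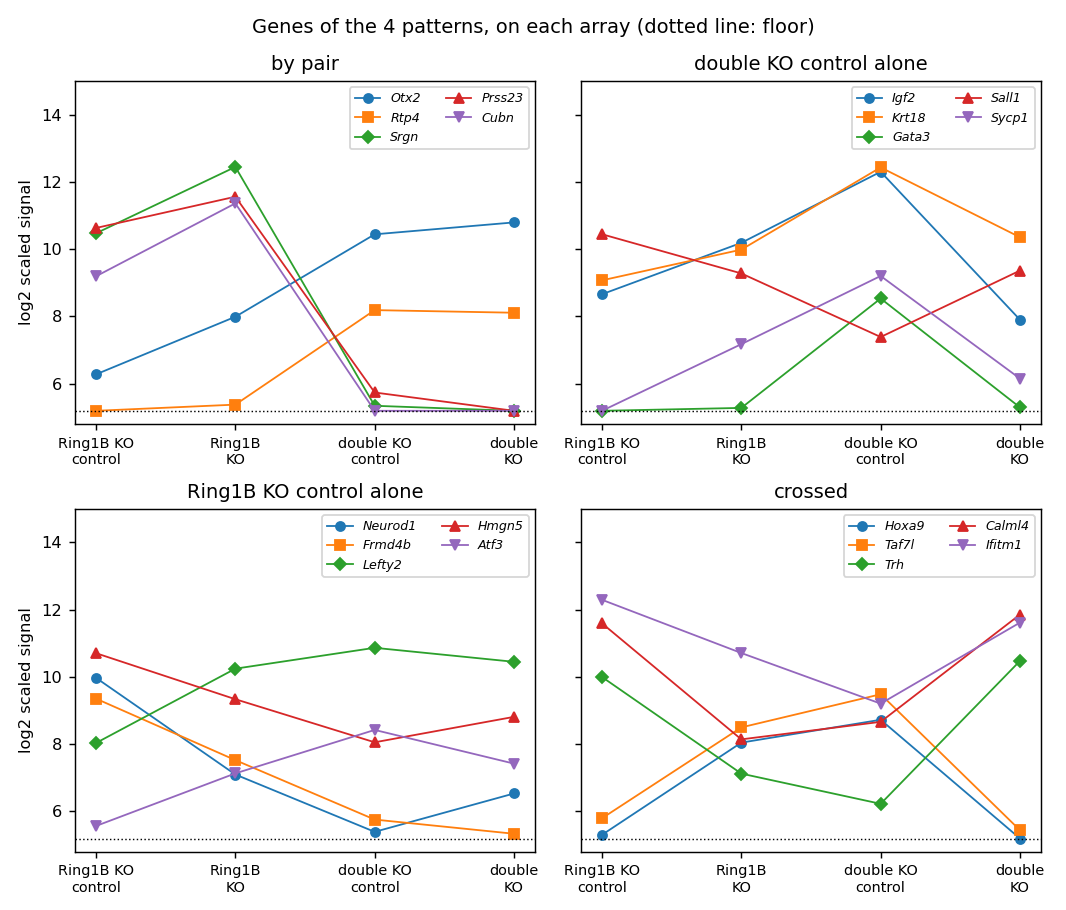
Log2 scaled signal (y axis) of 5 genes of each pattern on the 4 arrays (x axis); the lines only join the points of a gene, and the dotted line is the floor. Srgn, Prss23 and Cubn are high on both arrays of the Ring1B pair and at or near the floor on the double KO pair, Igf2 and Krt18 peak on the double KO control, and Hoxa9 and Taf7l are high on the Ring1B KO and the double KO control only.

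Otx2, a homeobox factor that marks cells leaving the naive state, had the largest difference upward with both controls above the floor. It read 77.6 and 254 in the Ring1B pair against 1391 and 1778 in the double KO pair, control first, and was 17.9-fold higher on the double KO control. Both arrays of the double KO pair were thus above both arrays of the Ring1B pair. The same held for Rtp4, a chaperone induced by interferon, with 36.6 and 41.6 against 292 and 276, and for Trib3, a pseudokinase induced by amino acid shortage, with 463 and 399 against 2503 and 2369. Ano6, a lipid scramblase of the membrane, read 221 and 207 against 1050 and 1114. Marveld3, a protein of tight junctions, read 44.8 and 48.7 against 411 and 253. Jkamp, a membrane protein of the endoplasmic reticulum, read 302 and 284 against 2372 and 1607, a 7.87-fold difference that its next brightest probe set did not show (log2 difference 0.48). H3f3b, a gene for the histone variant H3.3, read 47.1 and 54.9 against 538 and 272 at the probe set carrying its name here.

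Of the genes lower on the double KO control, Srgn had the largest difference. Srgn encodes serglycin, a proteoglycan of secretory granules and of parietal endoderm. It read 1421 and 5578 in the Ring1B pair against 40.6 and 36.6 in the double KO pair, 35.0-fold lower between the controls. Prss23, a secreted serine protease, read 1585 and 3020 against 53.4 and 36.6, and its next brightest probe set differed by -3.43. Cubn, the endocytic receptor cubilin of visceral endoderm and kidney, read 586 and 2632 against the floor on both arrays of the double KO pair, at least 16.0-fold lower. For all 3 genes the Ring1B KO was above its control, and the double KO pair was at or near the floor. The lysozyme genes Lyz1 and Lyz2, known from macrophages, read 1177 and 1745 against 82.4 and 36.6, and 569 and 856 against 53.2 and 42.2. Mep1b, a membrane metalloprotease of kidney and gut, read 516 and 624 against 36.6 and 90.5.

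In a second group of lower genes the signals were mostly close within each pair. Rpgrip1, a ciliary protein of photoreceptors, read 3310 and 3049 against 136 and 105, while its next brightest probe set differed by 0.24. Aco1, the cytosolic aconitase that senses iron, read 1904 and 2086 against 184 and 189 at its brightest probe set, while another read 417 and 407 against 402 and 430. For Rpgrip1 and Aco1 the difference was thus not seen at another probe set of the same gene. Rpl27a, a ribosomal protein, read 665 and 666 against 67.4 and 69.6. Rbm45, an RNA-binding protein, read 791 and 813 against 36.6 and 38.7, and Thg1l, an enzyme that adds a guanine to histidine tRNA, read 515 and 563 against 36.6 and 42.6 with a difference of -0.33 at its next brightest probe set. Tmem87a, a membrane protein, read 381 and 501 against the floor on both arrays, and Ppwd1, a peptidyl-prolyl isomerase of the spliceosome, read 538 and 442 against 36.6 and 65.6. These genes moved with the B1 repeat and 18S probe sets given above, and the part of that in their differences was not tested. Apart from these, Vapb, an adaptor of the endoplasmic reticulum, read 492 and 408 against 44.4 and 184, lowest on the double KO control, and differed by 0.37 at its next brightest probe set.

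Further genes stood apart on 1 control only or were crossed. Higher on the double KO control alone was Cidea, a lipid droplet protein, with 37.7 and 95.9 in the Ring1B pair against 452 and 36.6 in the double KO pair, as was Barx1, a homeobox factor of stomach and teeth, with 36.6 and 110 against 363 and 36.6. Lower on the double KO control alone were Bnc2, a zinc-finger protein of epithelia and mesenchyme, with 428 and 300 against 45.1 and 285, and Stmn3, a neuronal stathmin, with 307 and 144 against 36.6 and 125. The Ring1B control was lowest for Irgm1, a GTPase induced by interferon, with 54.5 and 157 against 287 and 363, and for Sema3f, a guidance molecule, with 72.1 and 177 against 424 and 326. It was highest for Hmgn5, a nucleosome-binding protein, with 1668 and 646 against 266 and 449. Among the crossed genes, Bhmt, an enzyme that remethylates homocysteine, read 36.8 and 313 against 343 and 40.5, and Gna14, a G protein subunit, read 362 and 38.7 against 36.6 and 133. Sema3e, another guidance molecule, read 250 and 57.7 against 38.5 and 135, but was high on the Ring1B control alone at its next brightest probe set, with 476 and 76.7 against 36.6 and 43.9. Apart from these, Serf1, a small protein that promotes aggregation, was of the by-pair pattern, with 48.5 and 136 against 475 and 152. It differed by -0.61 at its next brightest probe set.

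The naive pluripotency factors split. Of 22 on the array and above the floor, 2 were at least 2-fold higher and 6 as much lower on the double KO control, with a median of -0.30 against 0.13 over all 12646 genes. Gbx2, a homeobox factor downstream of LIF, read 718 and 426 in the Ring1B pair against 83.2 and 219 in the double KO pair, 8.62-fold lower between the controls. Sall1, a zinc-finger partner of Nanog, read 1393 and 621 against 168 and 659, with a difference of -1.22 at its next brightest probe set. Nr0b1, an orphan nuclear receptor, read 2480 and 1619 against 649 and 3167. Gbx2 was low on both arrays of the double KO pair, whereas Nr0b1 was low on the double KO control alone. Sall1 was lowest on the double KO control at its brightest probe set, but on the Ring1B KO at the next one, with 434 and 143 against 186 and 832. Sox2 read 6710 and 4275 against 2470 and 4351, a 2.72-fold difference in which the double KO control was the lowest array. Higher on the double KO control at the brightest probe set were Tbx3, a T-box repressor, with 539 and 1312 against 2208 and 1064, and Klf5, a Krüppel-like factor, with 2147 and 2380 against 6090 and 9651. The next brightest probe set of Klf5 differed by 0.03. Klf4 differed by -0.10 at its brightest probe set and by 1.43 at another, and the 3 probe sets of Esrrb differed by 0.37, -1.18 and -0.60, so no direction is given for Klf4, Klf5 and Esrrb.

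Other ES cell markers gave 2 higher and 7 lower of 26, with a median of -0.21. Several of the lower ones were high again on the double KO array. Trh, the precursor of thyrotropin-releasing hormone, read 1022 and 139 in the Ring1B pair against 74.8 and 1424 in the double KO pair. Calml4, a calmodulin-like protein, read 3088 and 282 against 405 and 3701. Both are of the crossed pattern, high on the Ring1B control and the double KO and low on the other arrays. Eras, a constitutively active Ras protein of ES cells, read 1879 and 686 against 410 and 308. Cdh1, E-cadherin, read 3806 and 3064 against 1324 and 1420. Higher were Lefty2, a Nodal antagonist, with 262 and 1212 against 1864 and 1397, and Alpl, the alkaline phosphatase used as a stain for ES cells, with 795 and 894 against 3539 and 1410.

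Genes of the formative and primed state did not move together, with 2 higher and 4 lower of 18 and a median of -0.13. Beside Otx2 the other higher member was Krt18, which is treated with the keratins below. Tcf15, a basic helix-loop-helix factor of early priming, read 1026 and 1421 against 466 and 419, and Foxd3, a forkhead factor, 164 and 196 against 77.0 and 82.6. Both were thus lower on both arrays of the double KO pair, while Otx2 was higher there. Pim2, a survival kinase, read 233 and 122 against 106 and 724, and Dnmt3b, a de novo DNA methyltransferase of this state, differed by -0.28.

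Genes of the germline had the highest median of the 38 lists examined, at 1.93. Of 30 above the floor, 21 were at least 2-fold higher on the double KO control and 0 at least 2-fold lower, beside 12.2% and 8.15% of all genes. Of the 21, 8 were at the floor on the Ring1B control. These genes serve meiosis, the silencing of transposons by piRNAs and sperm formation, and many are held silent in other cells by DNA methylation or by PRC1 variants. Sycp1, the transverse filament of the synaptonemal complex, read 36.6 on the Ring1B control, 145 on the Ring1B KO, 589 on the double KO control and 71.1 on the double KO, at least 16.1-fold higher between the controls. Taf7l, a germ cell form of a general transcription factor, read 55.5 and 361 in the Ring1B pair against 716 and 43.4 in the double KO pair. Syce1, a central element of the synaptonemal complex, read 141 and 1178 against 1346 and 262. Each of these had its highest signal on the double KO control and its next highest on the Ring1B KO. Mael and Mov10l1, factors of the piRNA pathway, read 333 and 2249 against 2076 and 327, and 79.2 and 259 against 628 and 93.5. Of the 21 higher genes, 11 were of the crossed pattern, for 9 the double KO control stood alone and for 1 the Ring1B control, and 0 followed the pairs. Over all higher genes these shares were 15.1%, 36.1%, 5.19% and 43.6%, in that order. Between the KO arrays the list's median ran the other way, at -1.24. The members that were not 2-fold apart include Sycp3, a lateral element of the synaptonemal complex, with 600 and 454 on the controls, and Prdm1, the repressor that founds the germline, with 166 and 114.

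Stretches of the promoters of 6 higher germline genes are shown because these genes moved together and their windows hold a shared hexamer. Windows run from 250 bases before to 50 after the start site in RefSeq's annotation of GRCm38.p6, and the E-box CACGTG, which reads the same on both strands, was searched. It is the sequence bound by factors of the Myc, Max and Mga family, background that the match itself does not bear on. Each stretch is written 5′ to 3′ along the gene's strand with the E-box in capitals.
Mael: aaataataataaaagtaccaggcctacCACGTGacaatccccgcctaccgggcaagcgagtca
Mov10l1: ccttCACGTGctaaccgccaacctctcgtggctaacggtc
Slc25a31: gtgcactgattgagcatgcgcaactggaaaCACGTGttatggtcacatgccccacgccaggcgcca
Stk31: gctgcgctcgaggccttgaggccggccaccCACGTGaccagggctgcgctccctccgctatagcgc
Sycp1: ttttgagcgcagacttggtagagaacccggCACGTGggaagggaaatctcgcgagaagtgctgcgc
Taf7l: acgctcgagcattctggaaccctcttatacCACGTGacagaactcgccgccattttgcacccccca

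The stretch of Mael lies at chr1:166238932-166238994 on the minus strand, that of Mov10l1 at chr15:88982744-88982783 on the plus strand and that of Slc25a31, a germ cell ADP/ATP carrier, at chr3:40708748-40708813 on the plus strand. The stretch of Stk31, a germ cell kinase, lies at chr6:49395454-49395519 on the plus strand, that of Sycp1 at chr3:102936159-102936224 on the minus strand and that of Taf7l at chrX:134476504-134476569 on the minus strand. Of the 21 higher germline genes, 18 had a promoter in the table, and 8 of these (44.4%) held the E-box. So did 4 of the 9 other germline genes above the floor (44.4%), 11.96% of the 10200 matched genes above the floor and 8.09% of the 27025 genes of the table. The share was thus the same in germline genes that were higher and in those that were not. The E2F-type heptamer GCGGGAA or its reverse complement TTCCCGC stood in 2 of the 18 (11.1%), in 4 of the 9 others and in 9.85% of the matched genes above the floor.

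Hox genes, homeobox genes that pattern the body axis and are classical Polycomb targets, were higher on the double KO control. Of 22 above the floor, 13 were at least 2-fold higher and 0 as much lower, with a median of 1.12, beside 12.2% and 8.15% of all genes. Of the 13, 10 were at the floor on the Ring1B control and entered the count only through their signal on the double KO control, and 11 other Hox genes were at the floor on both controls. Hoxa9 read 39.5 and 264 in the Ring1B pair against 423 and 36.6 in the double KO pair, 10.7-fold higher between the controls. Hoxd9 read 36.6 and 125 against 406 and 36.6, and Hoxd13 36.6 and 398 against 289 and 36.6. The pattern is the crossed one for 9 of the 13, beside 15.1% of all higher genes. These 9 had signal on the Ring1B KO and the double KO control and the floor, or close to it, on the other arrays. For 4, among them Hoxb13 with 36.6 and 82.3 against 248 and 36.6, the double KO control stood alone, as for 36.1% of all higher genes. Between the KO arrays, 0 members were 2-fold higher and 16 of 23 were 2-fold lower on the double KO. Over all 12354 genes above the floor on a KO array, 1306 were 2-fold higher and 1566 lower there. Hoxa5, at 115 and 133 against 146 and 193, and Hoxc6 were under 2-fold apart between the controls, and most of the signals in the list were low.

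Mesoderm and primitive streak genes gave 12 higher and 1 lower of 22, with a median of 1.04, beside 12.2% and 8.15% of all genes. Of the 12, 4 were at the floor on the Ring1B control. Cdx1, a caudal homeobox factor, read 46.7 and 131 in the Ring1B pair against 263 and 89.2 in the double KO pair. Eomes, a T-box factor of streak and trophoblast, read 85.3 and 164 against 453 and 87.5, and Isl1, a LIM homeobox factor of heart progenitors, read 36.6 and 61.6 against 129 and 36.6. In each of these the double KO control was the highest array. Snai2, a zinc-finger repressor of epithelial genes, ran the other way and followed the pairs, with 363 and 586 against 83.9 and 37.9. Mixl1 and Gsc, factors of the streak, were at or just above the floor on both controls, at 36.6 on the Ring1B control and at 40.6 and 37.1 on the double KO control.

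Trophoblast genes gave 14 higher and 1 lower of 21, with a median of 1.47, beside 12.2% and 8.15% of all genes. Of the 14, 4 were at the floor on the Ring1B control. For 10 of the 15 the double KO control stood alone, as it did for 36.1% of all higher and 14.7% of all lower genes. Gata3, a zinc-finger factor of trophectoderm, read 36.6 and 38.8 in the Ring1B pair against 370 and 39.2 in the double KO pair, at least 10.1-fold higher between the controls. Krt18, a keratin of simple epithelia, read 539 and 1014 against 5523 and 1309, and Krt7, another keratin and a trophoblast marker, read 73.6 and 75.3 against 652 and 205. The double KO control was in each case above the other 3 arrays. Elf5, Plac1 and Tpbpa, defining markers of trophoblast and placenta, were at the floor on both controls. Cdx2, a further marker of trophoblast, read 36.6 and 73.7 on the controls. Krt8 and Krt19 are keratins of simple epithelia in general and also stand in the epithelial list. They read 437 and 84.3 on the Ring1B control and 2293 and 603 on the double KO control. Rhox6, a homeobox gene of the placenta and germ cells, read 335 and 173 against 1579 and 510. Tfap2c, an AP-2 factor shared by trophoblast and germ cells, was the lower member, with 1496 and 692 against 312 and 297. The summed signal of the list was 4609 and 5156 in the Ring1B pair against 14953 and 4667 in the double KO pair.

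**Figure D3:**
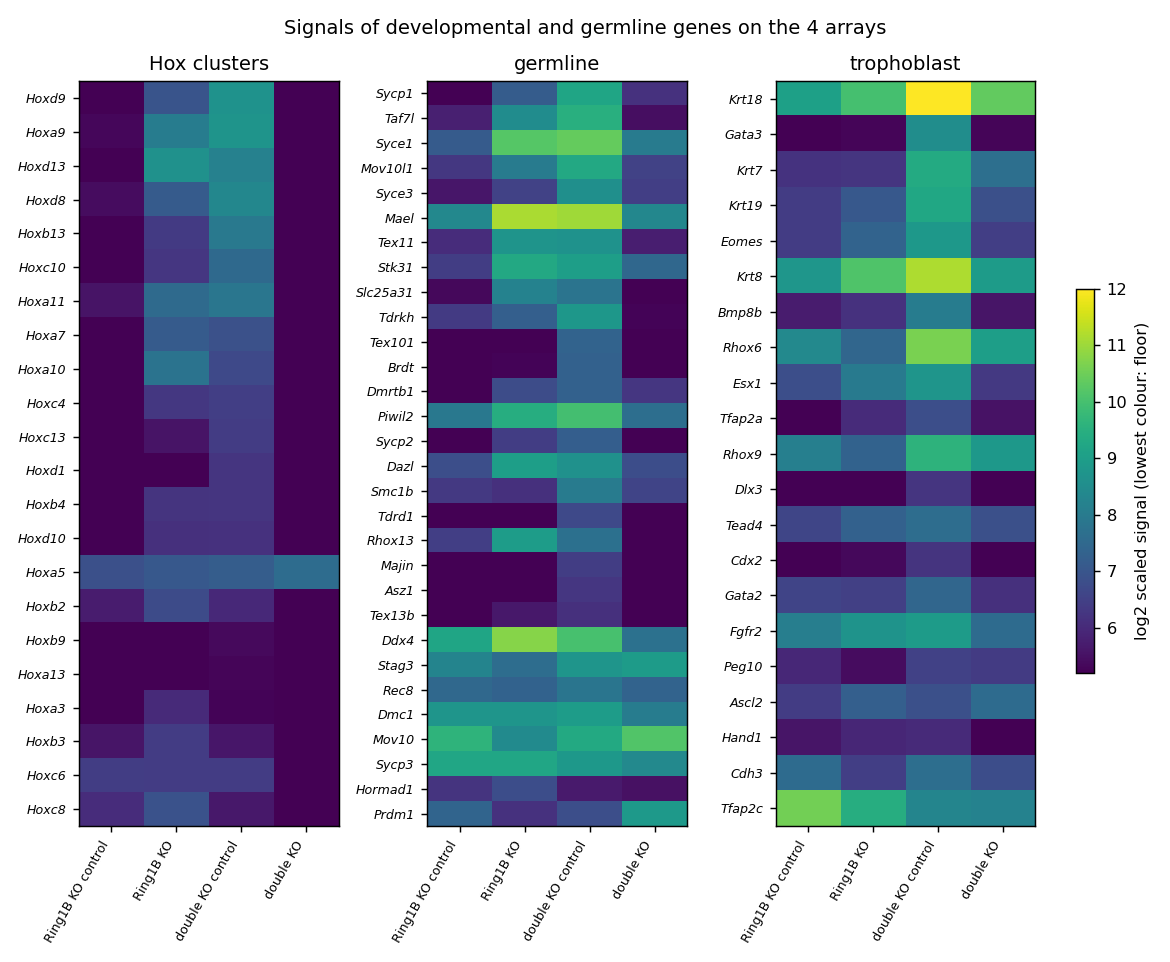
Log2 scaled signal (colour) of the members of the Hox, germline and trophoblast lists above the floor on a control (rows, sorted by the difference between the controls) on the 4 arrays (columns). In most of the upper rows the double KO control is brightest, and Hoxd13 and Mael are among those brighter on the Ring1B KO. The Ring1B KO is also bright for most Hox and germline genes. In the upper rows the Ring1B control and the double KO are darker than the double KO control, though Krt18 and Krt8 are well above the floor on them.

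Epithelial and adhesion genes were higher on the double KO control, with 9 higher and 2 lower of 24, beside 12.2% and 8.15% of all genes. Their median was 0.85, but here the KO arrays ran the same way, at a median of 0.76. Cldn7, a claudin of tight junctions, read 503 and 329 in the Ring1B pair against 2532 and 1727 in the double KO pair, and Cldn3, another claudin, 166 and 139 against 819 and 306. Both double KO arrays were above both arrays of the Ring1B pair for these claudins. In the list, 5 of the 2-fold genes followed the pairs, for 4 the double KO control stood alone and 2 were crossed. By pair were 43.6% of all higher and 63.7% of all lower genes. The members with the largest differences, Krt18, Krt19 and Krt8, did not follow the pairs. Esrp1, a splicing regulator of epithelial cells, read 681 and 382 against 1426 and 1536. Cdh1, given above, and Rab25, a small GTPase of epithelial trafficking with 81.7 and 36.6 on the controls, were the lower members. Some genes outside this list had larger differences. Mmp3 and Mmp9, matrix metalloproteases, read 55.4 and 74.1 against 608 and 167, and 41.7 and 79.6 against 460 and 77.5, with a difference of 4.28 at the next brightest probe set of Mmp9. Mmp13, the collagenase of the same family, read the floor throughout the Ring1B pair against 609 and 158 in the double KO pair, at least 16.7-fold higher between the controls. Cxcl14, a chemokine, read 92.3 and 253 against 1192 and 63.7, and Bmp1, a protease that processes procollagen, 69.8 and 102 against 727 and 58.3. The next brightest probe set of Bmp1 differed by 0.27, so its difference was not seen there.

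The list of primitive endoderm factors showed no common shift between the controls, with 2 higher and 1 lower of 14 and a median of -0.01, although its median was -2.88 between the KO arrays. Gata4 read 124 and 142 on the Ring1B control and the double KO control, Gata6, a zinc-finger factor like Gata4, 227 and 413, Sox7 99.5 and 68.9, and Sox17 118 and 78.2. All 4 were above the floor on both controls. Pdgfra, the PDGF receptor that marks this lineage, read 253 and 1247 in the Ring1B pair against 113 and 36.6 in the double KO pair. Dab2, another marker, read 684 and 2873 against 352 and 109, and differed by -1.67 at its next brightest probe set. Of these markers, Sox7, Sox17, Pdgfra and Dab2 were thus lower on the double KO control and Gata4 and Gata6 higher. At the brightest probe sets only Pdgfra differed by at least 2-fold. Cited1, a transcriptional coactivator, was the most different factor, with 67.0 and 242 against 484 and 70.3. Basement membrane genes, which the endoderm secretes, gave 4 higher and 1 lower of 14, beside 12.2% and 8.15% of all genes. Their median was 0.72. Lama5 and Hspg2, a laminin chain and perlecan, read 577 and 325 on the Ring1B control and 2051 and 1026 on the double KO control, while Lama1, the laminin chain of the early basement membrane, read 864 and 203. The next brightest probe set of Hspg2 differed by 0.04. Visceral endoderm genes gave 3 higher and 1 lower of 9, and 8 others, among them the defining markers Afp, Ttr, Apoa1 and Apob, were at the floor on both controls. Rbp4, a retinol carrier, read 95.6 and 247 in the Ring1B pair against 332 and 42.8 in the double KO pair, while Cubn ran the other way as given above.

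Fibroblast genes, which would mark a feeder layer, gave 3 higher and 4 lower of 23 between the controls, beside 12.2% and 8.15% of all genes. Their median was -0.23. Col1a2 and Postn, a collagen chain and periostin, read 1214 and 356 on the Ring1B control and 1133 and 356 on the double KO control. Thy1, a surface protein of fibroblasts, read 368 and 290. Other collagen genes were lower on the double KO control, with Col3a1 at 487 and 633 in the Ring1B pair against 221 and 66.4 in the double KO pair and Col1a1 at 595 and 841 against 324 and 96.2. On the double KO, Col1a2 read 340 and Postn 84.7. S100a4, a calcium-binding protein of motile cells, read 2219 and 3844 in the Ring1B pair against 285 and 108 in the double KO pair, Vim, the intermediate filament vimentin, 5610 and 7500 against 1428 and 1246, and Acta2, smooth muscle actin, 4762 and 6371 against 1502 and 420. Dcn, the proteoglycan decorin, and Ccl2, a chemokine, were higher, with 45.4 and 239 on the Ring1B control and 206 and 1016 on the double KO control. The summed signal of the list was 27736 and 37197 in the Ring1B pair against 17208 and 11077 in the double KO pair, and Lum, another defining marker, was at the floor on 3 arrays and at 48.5 on the double KO control. In bulk RNA, fewer cells of a type and less RNA per cell cannot be told apart, and the part of these cells in other differences was not tested.

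Neural genes split, with 4 higher and 5 lower of 22. Neurod1, a helix-loop-helix factor of neurons and endocrine cells, read 1004 on the Ring1B control and 137, 42.0 and 92.6 on the Ring1B KO, the double KO control and the double KO, and its next brightest probe set differed by -2.42. It was thus high on the Ring1B control alone. Frmd4b, a scaffold protein, read 653 and 184 against 54.1 and 40.4, with a difference of -1.72 at the next brightest probe set but of 0.05 without the probe sets that may match more than 1 transcript. Olig2, a factor of motor neuron and oligodendrocyte precursors, and Ncam1, a neural adhesion molecule, read 270 and 135 on the Ring1B control and 98.6 and 36.6 on the double KO control. Zic1 and Lhx2, factors of the neural plate, ran the other way, at the floor on the Ring1B control and at 171 and 111 on the double KO control. Of the defining markers, Nes was under 2-fold apart, Pax6 read 55.4 and 140, Sox1 73.0 and 36.6 and Tubb3 245 and 96.2. Blood and endothelial genes gave 2 higher and 3 lower of 11, with 9 others at the floor on both controls. Pecam1, an adhesion molecule that ES cells also carry, read 566 and 228 in the Ring1B pair against 139 and 905 in the double KO pair. Of the defining markers of blood and endothelium, Tek read 101 and 60.8 and Gata1 39.8 and 57.0 on the controls.

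**Figure D4:**
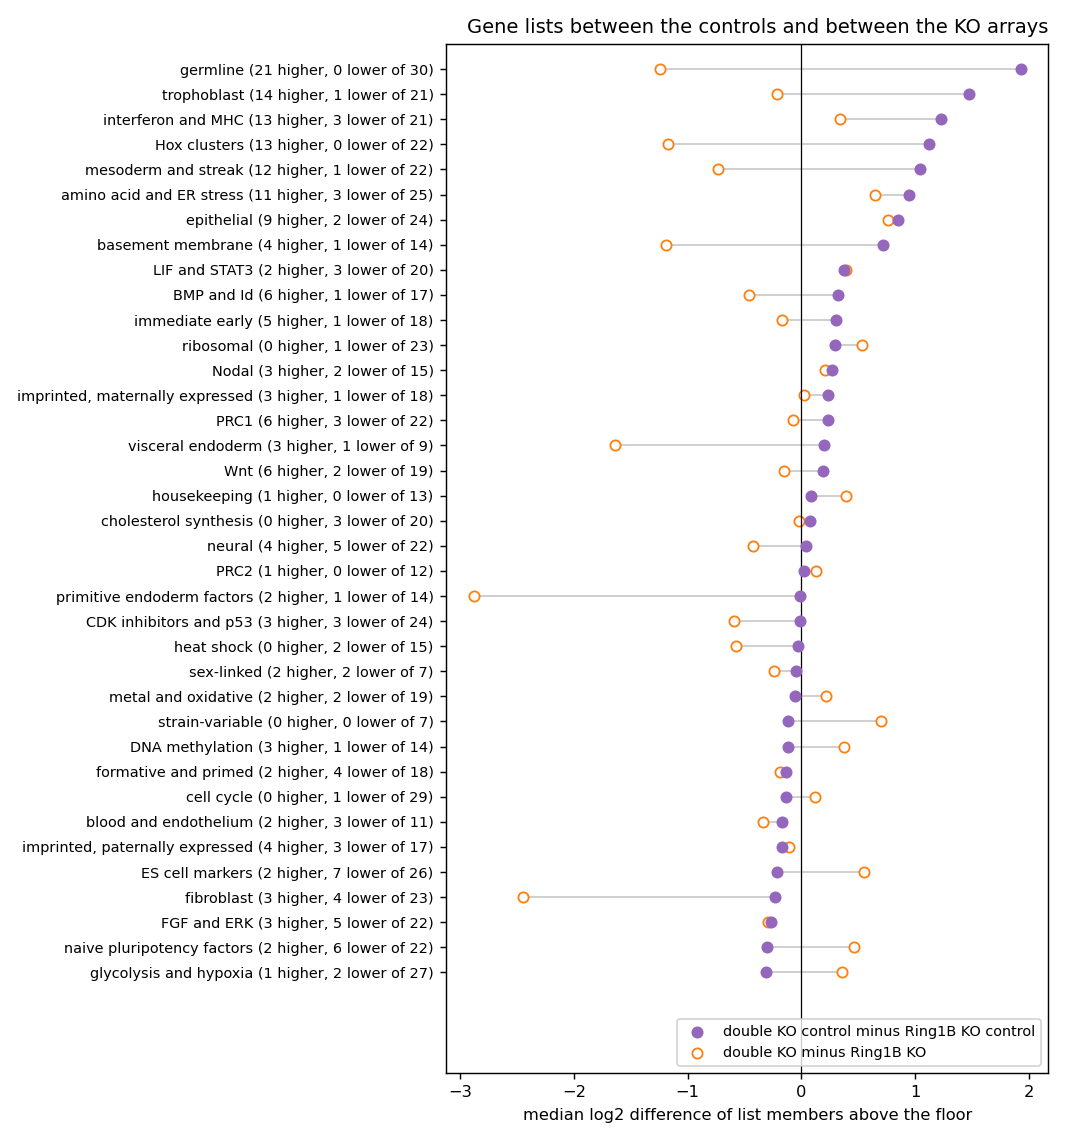
Median log2 difference (x axis) of each gene list with at least 5 members above the floor (rows, with the numbers of members at least 2-fold higher and lower and the number above the floor between the controls), between the controls (filled) and between the KO arrays (open), which share no array. The germline, trophoblast, interferon, Hox and mesoderm lists stand at 1.04 to 1.93 between the controls, and of these the germline and Hox lists stand below -1 between the KO arrays.

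Imprinted genes differed gene by gene. Of 17 paternally expressed genes, 4 were at least 2-fold higher and 3 lower, and of 18 maternally expressed genes, 3 and 1. Igf2, the fetal growth factor, read 404 and 1167 in the Ring1B pair against 5050 and 239 in the double KO pair, 12.5-fold higher between the controls. Its next brightest probe set was at the floor except on the double KO control, at 49.4, and differed by 0.43. Dlk1, a Notch-like ligand, read 72.0 and 162 against 547 and 46.2, and Cdkn1c, the CDK inhibitor p57, read 360 and 1102 against 1513 and 226. For all 3 the double KO control was the highest array. Sgce, sarcoglycan epsilon, read 242 and 155 against 1046 and 493, while its neighbour Peg10 differed by 0.56. Rian and Meg3, maternally expressed noncoding RNAs of the Dlk1 domain, read 765 and 2667 on the Ring1B control and 198 and 1988 on the double KO control. In this domain Dlk1 was thus higher and Rian lower on the double KO control, and Meg3 was under 2-fold apart. Mkrn3, a paternally expressed ubiquitin ligase, read 159 and 67.4 against 36.6 and 45.6.

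The Polycomb genes were mixed. Among 22 PRC1 genes 6 were at least 2-fold higher and 3 lower, beside 12.2% and 8.15% of all genes. Among 12 PRC2 genes 1 was higher and 0 lower. Lower beside Ring1 were Kdm2b, the CpG island binding subunit, with 1952 and 2767 in the Ring1B pair against 543 and 686 in the double KO pair, and Phc1, a polyhomeotic subunit, with 4199 and 2088 against 1648 and 5955. Higher were Bcor, the corepressor of a PRC1 variant, with 168 and 402 against 756 and 322, Pcgf5, a variant subunit, with 449 and 624 against 1618 and 903, and Bmi1, a subunit of canonical PRC1, with 168 and 659 against 595 and 196. At their brightest probe sets Kdm2b and Ring1 were lower on both arrays of the double KO pair, whereas Bmi1 was low on the Ring1B control and the double KO. Bcor was lowest on the Ring1B control and highest on the double KO control, also at its next brightest probe set. The next brightest probe set of Kdm2b differed by only -0.33. Of the PRC1 variant known to silence germline genes, E2f6 read 409 and 968 on the controls, L3mbtl2 874 and 1391, Mga 1129 and 795 and Pcgf6 1761 and 1965. In PRC2 the catalytic subunit Ezh2 read 2520 and 2843, and Aebp2, an accessory subunit, read 1538 and 1557 against 3110 and 1617. Of 14 genes of DNA methylation, 3 were higher and 1 lower. Dnmt3l, a cofactor of de novo methylation, read 1832 and 3589 against 4711 and 4263, Mbd1, a reader of methylated DNA, 132 and 236 against 556 and 434, and Tet2, an enzyme of demethylation, 747 and 780 against 345 and 631. Dnmt1, the maintenance enzyme, differed by -0.09.

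The signalling lists were mixed. In the LIF and STAT3 list 2 were higher and 3 lower of 20. Lifr, the LIF receptor subunit, read 977 and 702 in the Ring1B pair against 128 and 297 in the double KO pair, and Socs3, the feedback inhibitor induced by STAT3, read 2094 and 1407 against 755 and 979, while Il6st and Stat3, the other receptor subunit and the factor itself, differed by -0.11 and -0.04. The receptor and the feedback target were thus lower on both arrays of the double KO pair, but Socs3 differed by 0.43 without the probe sets that may match more than 1 transcript. In the BMP list 6 were higher and 1 lower of 17, beside 12.2% and 8.15% of all genes. Id1, a helix-loop-helix inhibitor induced by BMP, read 851 and 985 against 273 and 242, while Id2, of the same family, read 317 and 347 against 1677 and 305, and Bmp7 and Bmp8b, ligands, read 53.8 and 52.6 on the Ring1B control and 238 and 267 on the double KO control.

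In the Nodal list 3 were higher and 2 lower of 15. Lefty1, an antagonist and target of Nodal, read 2303 and 1386 in the Ring1B pair against 535 and 3746 in the double KO pair, and Tdgf1, the coreceptor Cripto, 8516 and 6220 against 3814 and 7774. Foxh1, the factor that takes Smads to Nodal targets, read 258 and 289 against 1069 and 841, and Nodal itself 1196 and 1145 against 2235 and 2135. Lefty1 and Lefty2 thus differed in opposite directions between the controls. In the FGF and ERK list 3 were higher and 5 lower of 22, with a median of -0.26. Spred1, a feedback inhibitor of Ras, read 1381 and 642 against 300 and 461, and Spry1, a sprouty inhibitor, 412 and 320 against 1464 and 1263, whereas Spry2, its relative, read 1568 and 1636 against 776 and 829. Klb, the FGF coreceptor, read 132 and 825 on the Ring1B pair and the floor on both arrays of the double KO pair. In the Wnt list 6 were higher and 2 lower of 19, beside 12.2% and 8.15% of all genes. For 7 of these 8 the double KO control stood alone, as it did for 36.1% of all higher and 14.7% of all lower genes. Axin2, the feedback target of the pathway, read 119 and 171 against 539 and 179, and Wnt4, a ligand, 57.9 and 77.4 against 223 and 36.6, while the receptor Fzd7 read 1147 and 857 against 336 and 821.

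Genes induced by amino acid shortage and by stress of the endoplasmic reticulum (ER) gave 11 higher and 3 lower of 25. Over all genes 12.2% were higher and 8.15% lower. The median of the list was 0.94, and 0.65 between the KO arrays. For 11 of the 14 the difference followed the pairs, beside 43.6% of all higher and 63.7% of all lower genes. This was the largest number in any list, though not the largest share. Atf4, the central factor of this response, read 3928 and 4056 in the Ring1B pair against 9810 and 10426 in the double KO pair, but its next brightest probe set differed by -0.92. Chac1, which degrades glutathione, read 339 and 453 against 1581 and 1635, and Mthfd2, a mitochondrial enzyme of folate metabolism, 1984 and 2094 against 5190 and 5477. Within each pair the 2 arrays were close for these genes, as for Trib3 above. Atf3, a stress-induced relative of Atf4, read 47.4 and 140 against 343 and 171. The lower members belong to the ER chaperone arm, with Sdf2l1 at 494 and 459.5 against 70.6 and 61.7, Dnajb9 at 606 and 707 against 199 and 213, and the factor Xbp1 at 3151 and 3146 against 1543 and 1261. The chaperone Hspa5 differed by -0.04.

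Cholesterol synthesis gave 0 higher and 3 lower of 20, and all 3 followed the pairs. Insig1, which holds back the sterol-sensing machinery, read 532 and 535 in the Ring1B pair against 154 and 247 in the double KO pair, Idi1, an isomerase of the pathway, 1391 and 1468 against 444 and 597, and Scd2, a fatty acid desaturase, 3814 and 4728 against 1509 and 1276. The other 17 were under 2-fold apart, among them Hmgcs1, the first committed enzyme, with 4621 and 4648 on the controls. Glycolysis and hypoxia genes gave 1 higher and 2 lower of 27 with a median of -0.31. Ndrg1, a stress-induced protein, read 147 and 462 on the controls, Egln3, an oxygen sensor, 530 and 222, and Vegfa, the vascular growth factor, 346 and 137. The next brightest probe set of Vegfa differed by 0.66, so no direction is given for it. Of 29 cell cycle genes 0 were higher and 1 was lower, Ccne2, a cyclin of the G1 to S transition, with 227 and 91.9 on the controls. Of the CDK inhibitors and p53 targets, 3 were higher and 3 lower of 24. Cdkn1b, the inhibitor p27, read 497 and 345 in the Ring1B pair against 124 and 125 in the double KO pair, and Gadd45b, a stress sensor, 428 and 406 against 1686 and 733, while Cdkn2a read 37.8 and 47.8 on the controls. Heat shock genes gave 0 higher and 2 lower of 15, ribosomal protein genes 0 and 1 of 23 and housekeeping genes 1 and 0 of 13.

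Immediate early genes gave 5 higher and 1 lower of 18. Fos, a subunit of the AP-1 factor, read 103 and 127 in the Ring1B pair against 638 and 234 in the double KO pair, and Zfp36, which destabilises messenger RNA, 221 and 169 against 764 and 240. Myc was the lower member, with 627 and 692 against 308 and 400. Metal and oxidative stress genes gave 2 higher and 2 lower of 19. Txnip, an inhibitor of thioredoxin, read 3535 and 1362 against 8605 and 7383, and Cat, catalase, 2011 and 1550 against 614 and 797.

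Interferon and MHC genes gave 13 higher and 3 lower of 21, with a median of 1.22, beside 12.2% and 8.15% of all genes. Of the 13, 5 were at the floor on the Ring1B control. Oasl2, an antiviral protein induced by interferon, read 36.6 and 45.7 in the Ring1B pair against 287 and 225 in the double KO pair, and Usp18, which removes the ubiquitin-like Isg15, the floor on both arrays against 193 and 149. Both arrays of the double KO pair were thus above those of the Ring1B pair. Tap1, the peptide transporter of antigen presentation, and H2-K1, an MHC class I chain, read 52.0 and 556 on the Ring1B control, 298 and 2810 on the double KO control, and 76.9 and 947 on the double KO, so the double KO control stood alone. B2m, the light chain of MHC class I, differed by 0.18. Of the 16 genes, 7 followed the pairs, beside 43.6% of all higher and 63.7% of all lower genes. The lower members were the membrane proteins Ifitm1, Ifitm2 and Ifitm3, which are also known from ES and germ cells. Ifitm1 read 5016 and 1674 against 590 and 3136, Ifitm3 7282 and 3456 against 2247 and 4499, and Ifitm2 7116 and 4993 against 3075 and 4559.

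Of 7 sex-linked genes above the floor on a control, 2 were at least 2-fold higher and 2 lower. Eif2s3y, a gene of the Y chromosome, read 120 and 459 in the Ring1B pair against 120 and 133 in the double KO pair, and Uty, also of the Y chromosome, 36.6 and 77.2 against 89.8 and 65.4. Eif2s3y was thus above the floor on all 4 arrays, while Kdm5d, another gene of the Y chromosome, was at the floor on all 4 and the next brightest probe set of Uty was at the floor on both arrays of the double KO pair. Xist, the RNA of X inactivation, read 419 and 315 against 159 and 136, and Kdm5c, an X-linked demethylase, 223 and 281 against 575 and 548. Kdm6a, another X-linked demethylase, read 533 and 440 against 228 and 410, and its next brightest probe set differed by -2.21. Without the probe sets that may match more than 1 transcript the differences of Uty and Kdm5c turned to -0.32 and -0.14, so no direction is given for them. Of 7 genes known to vary between laboratory strains, 0 were 2-fold apart, with Nnt, a mitochondrial transhydrogenase, at 593 and 561 on the controls and Wdfy1, an endosomal adaptor, at 396 and 753.

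By chromosome, the median difference ran from -0.09 on the X, where 28 of 351 genes above the floor were at least 2-fold higher and 53 lower, to 0.25 on chromosome 15, with 58 and 29 of 427. Among the autosomes chromosome 1 had the lowest median, at 0.01. Runs of 15 neighbouring genes above the floor on both controls differed more, and the extreme ones are described here because they were the extremes. The lowest running median was -1.14, on chromosome 17 from Zfp160 to Zfp946, where 9 of the 15 genes were at least 2-fold lower and 0 higher, and the same genes had a median of -0.83 between the KO arrays. All 15 are named as zinc-finger genes, many of whose family silence transposons, and Zfp229 among them read 491 and 646 in the Ring1B pair against 45.4 and 69.6 in the double KO pair. A further run from Ccne1 to Zfp719 on chromosome 7, most of whose members are zinc-finger genes, had medians of -0.72 between the controls and -0.71 between the KO arrays. Both runs thus followed the pairs. The run from Cflar to Raph1 on chromosome 1 had -0.82 and -0.06, and that from Taf7l to Tceal8 on the X, which holds the Armcx genes, -0.86 and -0.02, so these were not seen between the KO arrays. The highest running median was 0.96, on chromosome 11 from Slc36a1 to Irgm2, with 7 genes at least 2-fold higher.

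The firmness of a single difference can be read from genes with several probe sets, which are further measurements on the same arrays and not replicates. Of 710 higher genes with another probe set above the floor, 582 (82.0%) had the same sign there and 230 (32.4%) were also at least 2-fold higher, against 13 at least 2-fold lower. Of 520 lower genes, 442 (85.0%) had the same sign and 209 (40.2%) were also 2-fold lower, against 9 higher. Named genes that were 2-fold apart at both probe sets include Prss23, Cubn, Lyz1, Neurod1, Mmp9 and Trib3. For some further named genes that were 2-fold apart the next brightest probe set was closer to 0, differing by -0.15 for E2f6, -0.34 for Lifr, -0.38 for Tet2, 0.13 for Sgce and 0.26 for Tap1. By signal, the share of genes 2-fold apart was 19.9% among the dimmest 3162 genes, 29.1% and 19.8% among the following groups of 3161, and 12.7% among the brightest 3162, whose mean signal was at least 828.

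**Figure D5:**
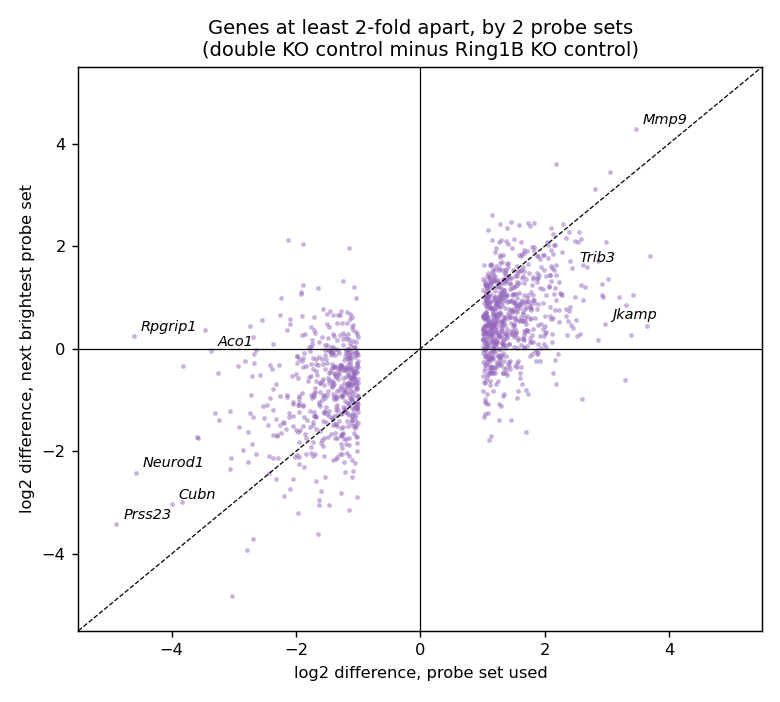
Log2 difference between the controls at the probe set used (x axis) and at the next brightest probe set (y axis) of the genes at least 2-fold apart that have one, 1 point a gene; the dashed line marks equality. Most points share the sign of the 2 measurements, Prss23, Cubn, Neurod1 and Mmp9 are large in both, and Rpgrip1 and Aco1 lie near 0 at the next brightest probe set.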

How the data were processed

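Levels were measured on 4 Affymetrix mouse arrays of 45101 probe sets, 1 array per group. The labels' protocols give Trizol extraction, column purification and biotin labelling after 1 cycle of amplification. The deposited values are linear signal intensities, which the authors made with MAS5 according to the submitters' processing notes; its version and settings are not given in the sources used here. The deposited trimmed means were 500 for the Ring1B pair, 160 for the double KO control and 147 for the double KO.

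Arrays were scaled to a common 2%-trimmed mean (277), floored at the 40th percentile of signals (36.6) and set on the log2 scale. This scaling assumes that summed signals are alike, and the floor shrinks differences of dim genes. The 34958 probe sets with 1 gene symbol in the platform annotation were used (34754 matched RefSeq's gene table by Entrez identifier), the brightest per gene over the 4 arrays. Differences of at least 2-fold were counted. With 1 array per group there was no test and no estimate of error, so the array number is what limits precision. The steps were tested on simulated data. The 38 gene lists and the comparison itself were chosen with earlier results of these data known, and support nothing by themselves. Named genes are Ring1, Rnf2, the main ES cell factors and the sex-linked list, the largest differences, bounds, gaps between pairs and members of each pattern in each direction, and up to 3 members of a list per direction. Cell type markers are named as well. Other list members that are named, such as Atf4, Mthfd2, Cldn7, Cldn3, Esrp1, Mael, Mov10l1, Hoxb13, Rhox6, E2f6 and H2-K1, were chosen after their values were seen. Predicted genes were counted and not named. Alternatives concerned scaling, floor, choice of probe set and probe sets matching several transcripts. Python 3.11.15, pandas 2.3.3 and statsmodels 0.14.6 were used.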

Additional observations from a re-analysis of the deposited data

How the results depend on the processing

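With 1 array per group no replicate could be left out and no error estimated. No paired analysis was possible because each group holds 1 array and no result comes from a test. The counts moved most with the floor. At the 20th percentile 1747 genes were at least 2-fold lower, and the double KO control stood alone for 1187 genes, the Ring1B control for 495, with 620 crossed. At the 60th percentile 982 genes were higher and 637 lower, and these patterns held 402, 101 and 148. With the mean over probe sets 992 genes were higher. Of 257 named genes, 184 were at least 2-fold apart, and 124 of these stayed so in the same direction under each of the 8 alternatives that gave them a value. Directions turned for 6. Slc30a1 went to -0.00609 with the mean over probe sets, and without probe sets matching several transcripts Uty went to -0.32, Kdm5c to -0.14, Frmd4b to 0.049, Socs3 to 0.43 and Fgfr1 to -0.045, where another probe set of the gene is read. Of 13 list medians of at least 0.3 in size, 1 reversed, that of the BMP list, to -0.083 at the higher floor, where fewer genes are tested. Signal over background limits the Hox and many germline genes, which lie near the floor on the lower side.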
